A study of Mus musculus with 25 samples.

Results

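The 36 genes described here encode proteins that hepatocytes make and mostly secrete into blood plasma, and they were followed in the perigonadal fat pad (pgWAT), a white adipose depot attached to the epididymis, of 25 male C57BL6/J mice. They were chosen because liver transcripts stood high in the ChREBPβ line, so the difference between the lines is given below as a description only. They are 36 of 37074 gene names on the array and 36 of the 36 passed the filter on dim spots. Each gene is represented by the probe with the highest mean over the 25 arrays, 36 of the 51 probes that carry these names. A level is the log2 of the quantile-normalised median intensity of a spot, without background subtraction and has no true zero. Levels of 1 gene can be compared between mice, whereas levels of different probes are not set against each other.

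The mice belonged to 2 lines. In the ChREBPβ line, wild-type mice (ChREBPβ WT, 7 arrays) were compared with mice that carried a CRISPR deletion of the exon used only by ChREBPβ, the short, constitutively nuclear isoform of the glucose-responsive factor ChREBP (ChREBPβ KO, 6 arrays). In the total ChREBP line, wild-type mice (total ChREBP WT, 7 arrays) were compared with Mlxipl-null mice, which lack both isoforms (total ChREBP KO, 5 arrays). Both deletions were in the whole body, and all mice had been fasted for 24 h and then refed for 18 h with chow and water holding 20% glucose. Age was not given in the labels, and each array held the RNA of 1 mouse. The WT groups came from different lines, so line and cohort cannot be told apart.

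In a healthy mouse, albumin, fibrinogen, transthyretin, the inter-alpha-trypsin inhibitors and most apolipoproteins come chiefly from the hepatocyte. Their transcription depends on a shared set of liver-enriched factors, among them HNF1, HNF4, FOXA and C/EBP proteins. White fat secretes some plasma proteins of its own, haptoglobin being an established example, and apolipoprotein C-I is also made by macrophages. ChREBP itself works in both liver and fat, where it turns on genes of glycolysis and lipogenesis after a carbohydrate meal.

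Raw intensities had medians of 84 to 127 per array over a local background of 15 to 22, 73.0% to 77.9% of spots were well above background, 0 spots were saturated, and arrays of 1 group correlated at 0.971 to 0.997 over all tested probes. Arrays lay in 4 wash batches that each held all 4 groups. The probe for Mlxipl itself read 15.08 ± 0.27 in ChREBPβ WT and 14.36 ± 0.33 in ChREBPβ KO (mean ± SD). In the total ChREBP line it read 15.97 ± 0.20 in WT and 14.21 ± 0.08 in KO mice. In all 25 mice the adipocyte list (12 genes, among them Adipoq, Fabp4 and Cfd) stood between 15.54 and 15.92 as a mean level. The RNA is from bulk tissue, so fewer cells of a type and less RNA per cell cannot be told apart. The study also collected liver. Of 35 other hepatocyte genes, given below, 27 correlated above 0.9 with the mean of the 36 in the ChREBPβ line. Slc10a1, Cyp2e1, Pck1 and Gys2, among the brightest of them, did not. Whether liver tissue carried over at dissection had a part in any level or difference of the 36 genes in pgWAT was not tested.

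In the ChREBPβ line the mean level over the 36 genes was 13.51 ± 1.32 for WT (SD, n = 7) and 12.20 ± 1.62 for KO mice (n = 6). In the total ChREBP line it was 8.96 ± 1.66 for WT (n = 7) and 6.94 ± 0.35 for KO mice (n = 5). Single mice ran from 11.28 to 14.96, from 9.90 to 14.14, from 6.96 to 11.80 and from 6.56 to 7.50 in that order. Mice of 1 genotype and 1 line thus differed by up to 4.85 on the log2 scale in 3 of the 4 groups, and by 0.94 in total ChREBP KO. The total ChREBP WT mouse with the highest mean (replicate 2, 11.80) stood above ChREBPβ WT replicate 1 (11.28) and above ChREBPβ KO replicates 2 (11.27) and 3 (9.90).

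**Figure D1:**
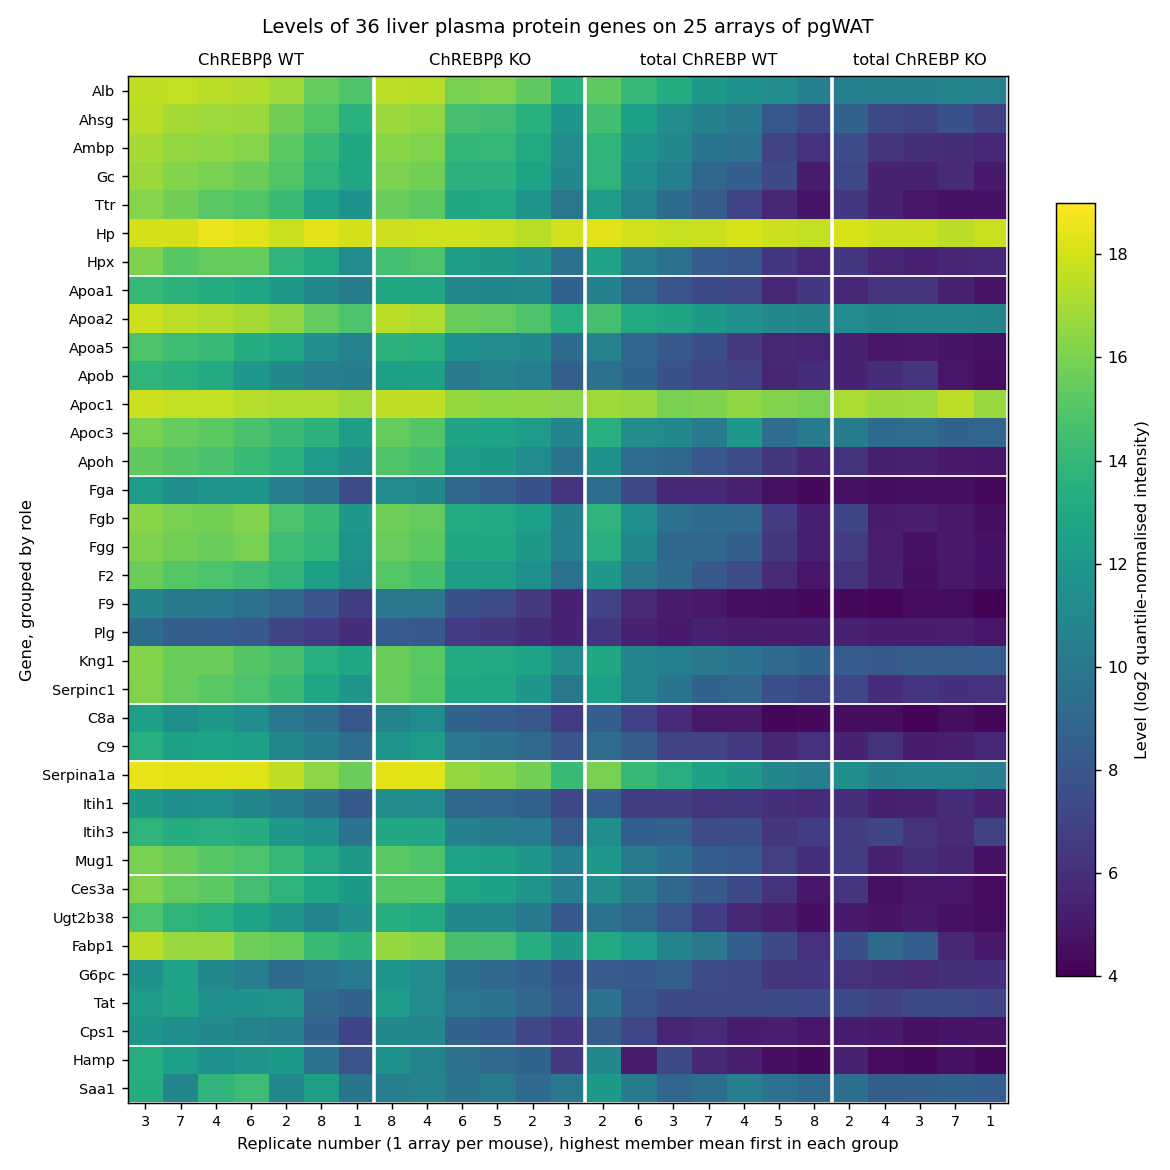
Levels (colour, log2 quantile-normalised intensity) of the 36 genes (rows, grouped by role) on the 25 arrays (columns, 1 mouse each, ordered within each group from the highest to the lowest mean over the 36 genes); colours are to be read along a row. Nearly every row fades from left to right inside the first 3 groups, while Hp and Apoc1 keep 1 colour throughout and total ChREBP KO is dark in most rows.

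The difference between the lines, which was the basis for choosing these genes, was as follows. Over the 36 genes the median fitted difference between ChREBPβ WT and total ChREBP WT was 4.76 (range 0.24 to 6.13, higher in the ChREBPβ line), and between ChREBPβ KO and total ChREBP KO it was 5.37 (range -0.11 to 7.98). Over all tested probes the same medians were -0.05 and -0.04. The gene nearest to no difference was Hp in both comparisons (0.24 between the wild types and -0.02 between the knockouts), followed by Apoc1 (1.08 and -0.11). The largest was Ces3a between the wild types (6.13) and Gc between the knockouts (7.98). Between the knockouts, 33 of the 36 genes had every ChREBPβ KO mouse above every total ChREBP KO mouse, as did 4% of all probes. The exceptions were Apoc1, Hp and Saa1. Between the wild types 8 genes were separated in this way (Apoa2, Apob, C9, Mug1, Ces3a, Ugt2b38, Fabp1 and G6pc), against 1.74% of all probes. For 0 of the 36 did both ChREBPβ groups lie above both total ChREBP groups, against 0.24% of all probes.

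The same distances are given by wash batch as a description, since they rest on the values used to choose the genes. The mean of the 36 genes was higher in ChREBPβ WT than in total ChREBP WT by 6.75, 3.84, 3.46 and 3.78 in wash batches 1 to 4, and higher in ChREBPβ KO than in total ChREBP KO by 5.39, 3.00, 5.11 and 6.53. On the 6 slides that held an array of each line, the array of the ChREBPβ line was the higher one by 1.17 to 8.01. Some of these slides paired a WT with a KO array. The gap of 8.01 was between ChREBPβ WT replicate 3 and total ChREBP KO replicate 4. The smallest gap was on slide 8, between ChREBPβ WT replicate 1 and total ChREBP WT replicate 6.

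Among the carriers of plasma, albumin (Alb, which binds fatty acids and hormones) was read by 2 probes. The brighter one stood at 14.88 to 17.65 in ChREBPβ WT (median 17.25) and at 13.59 to 17.48 in ChREBPβ KO (median 16.02). In total ChREBP WT it ran from 10.49 to 15.30 (median 12.09), and the 5 total ChREBP KO mice read 10.65, 10.48, 10.59, 10.53 and 10.81. Within the ChREBPβ line the genotypes overlapped over most of their range, while the 5 total ChREBP KO mice lay within 0.33 of each other, at the level of the lowest total ChREBP WT mouse. The dimmer probe gave the same order of groups on a wider scale, 13.94 to 18.02, 12.38 to 17.64, 7.38 to 14.95 and 7.21 to 8.90 (ChREBPβ WT, then KO, then total ChREBP WT and KO). Alb was lower in ChREBPβ KO by a fitted 0.75 on the log2 scale (95% interval -2.25 to 0.75, adjusted p = 0.821), and the total ChREBP KO minus WT difference was -1.94 (SE 0.76, interval -3.52 to -0.37, adjusted p = 0.13), so neither passed the test. Without ChREBPβ KO replicate 3 the ChREBPβ KO minus WT difference of Alb was -0.23. The dimmer probe gave -1.01 (adjusted p = 0.843) and -3.35 (adjusted p = 0.0675).

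Ambp encodes the precursor of alpha-1-microglobulin and bikunin. It stood at 12.91 to 17.01 in ChREBPβ WT (median 16.28), 11.38 to 16.34 in ChREBPβ KO (median 13.97) and 6.15 to 13.73 in total ChREBP WT (median 9.83). The 5 total ChREBP KO mice read 5.72, 7.54, 6.08, 6.23 and 5.90. Ambp fell by 3.61 on the log2 scale in total ChREBP KO (SE 1.12, adjusted p = 0.0481), although its groups overlapped. The other carriers had the same layout. Gc (vitamin D-binding protein) ran from 5.20 to 13.74 in total ChREBP WT and from 5.12 to 7.27 in total ChREBP KO, Ahsg (fetuin-A) from 7.25 to 14.46 and from 6.93 to 8.76, Ttr (transthyretin, a carrier of thyroxine and retinol-binding protein) from 4.85 to 12.27 and from 4.75 to 6.43, and Hpx (hemopexin, which binds haem) from 5.65 to 12.65 and from 5.38 to 6.46. In the ChREBPβ line these 4 genes ran from 9.68 (Hpx) to 17.44 (Ahsg). The other Ttr probe gave a total ChREBP KO minus WT difference of -0.98, against -3.03 for the probe used.

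Hp, haptoglobin, the haemoglobin scavenger, was the exception among the carriers. It stood at 17.80 to 18.58 in ChREBPβ WT (median 18.06), 17.40 to 17.95 in ChREBPβ KO (median 17.89) and 17.63 to 18.31 in total ChREBP WT (median 17.84). The 5 total ChREBP KO mice read 17.80, 18.08, 17.84, 17.86 and 17.45. All 4 groups overlapped, with SDs of 0.21 to 0.26. Its KO minus WT differences were -0.37 (adjusted p = 0.38) and -0.11 (adjusted p = 0.744).

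**Figure D2:**
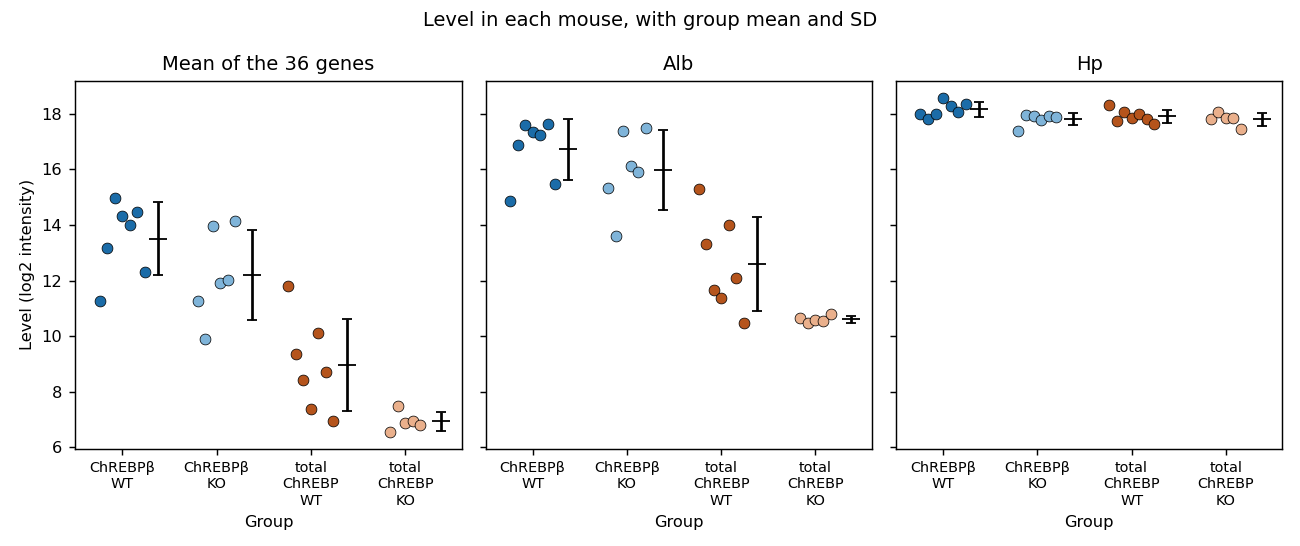
Level (log2 intensity) in each mouse (points) of the mean over the 36 genes, of Alb and of Hp in the 4 groups, with the group mean and SD (black bars). The mean of the 36 genes spans 9.90 to 14.96 in the ChREBPβ line and 6.56 to 11.80 in the total ChREBP line, Alb follows it, and Hp stays between 17.40 and 18.58 in all mice.

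The apolipoproteins (protein parts of lipoprotein particles) included Apoa1 and Apoa2 of HDL, Apob of VLDL and LDL, the triglyceride regulators Apoa5 and Apoc3, Apoc1, and Apoh, a phospholipid-binding protein. Apoa5 stood at 10.64 to 14.85 in ChREBPβ WT (median 13.30), 9.32 to 13.69 in ChREBPβ KO (median 11.48) and 5.56 to 10.67 in total ChREBP WT (median 7.58). The total ChREBP KO mice read 4.67, 5.52, 5.02, 4.89 and 4.84, below every total ChREBP WT mouse. Apoa1 (8.80 to 14.03 in the ChREBPβ line against 4.77 to 10.60 in the total ChREBP line), Apoa2 (13.42 to 17.88 against 10.81 to 14.55), Apob (8.61 to 13.80 against 4.56 to 9.57), Apoc3 (10.77 to 15.97 against 8.75 to 13.49) and Apoh (9.73 to 15.36 against 4.98 to 11.68) were laid out alike. One of the 3 Apoc3 probes was flat, with KO minus WT differences of -0.10 and -0.02, so the probes of this gene disagreed. The other Apoa5 probe gave a total ChREBP KO minus WT difference of -0.89 (adjusted p = 0.635), against -2.58 (adjusted p = 0.081) for the probe used. For Apob these were -0.9 and -1.97, whereas the other Apoa2 probe gave a larger difference (-2.82 against -1.26).

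Apoc1 departed from the other apolipoproteins. It stood at 16.85 to 17.87 in ChREBPβ WT (median 17.34), 16.38 to 17.59 in ChREBPβ KO (median 16.56) and 15.93 to 16.89 in total ChREBP WT (median 16.16), and the 5 total ChREBP KO mice read 16.71, 17.07, 16.80, 16.73 and 17.48. It was thus the only 1 of the 36 genes with a fitted level above wild type in total ChREBP KO (0.65, SE 0.23, adjusted p = 0.0958), and the ChREBPβ KO minus WT difference was -0.54 (SE 0.22, adjusted p = 0.456). The difference between the effects of total ChREBP and ChREBPβ deficiency was 1.19 (SE 0.32, adjusted p = 0.0426) and passed the test, as 1.29% of all probes did in the same direction. Within wash batches the ChREBPβ KO minus WT difference was -0.70, -0.83, -0.81 and -0.18 and the total ChREBP KO minus WT difference 0.57, 0.87, 1.08 and 0.30. The call was lost in 20 of the 35 alternatives (adjusted p from 0.00643 to 0.158). Of the 25 fits that left out 1 array it was kept in 8, those without ChREBPβ WT replicate 1 or 8, ChREBPβ KO replicate 4 or 8, total ChREBP WT replicate 2 or 6, or total ChREBP KO replicate 1 or 4, and lost on leaving out any other array.

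Among the clotting genes, Fgb had the largest fitted difference of the 36 in total ChREBP KO, while Plg (-0.21) and F9 (-0.87) were among the smallest. Fibrinogen is built of 3 chains from neighbouring genes on chromosome 3, and the probes for Fgg (82818825-82818884), Fga (82835678-82835737) and Fgb (82846334-82846393) lie next to each other on mouse build mm9. Fgb stood at 12.11 to 16.32 in ChREBPβ WT (median 15.87), 10.62 to 15.69 in ChREBPβ KO (median 13.14) and 5.34 to 13.74 in total ChREBP WT (median 9.33). The 5 total ChREBP KO mice read 4.56, 7.11, 5.24, 5.12 and 5.03. Replicate 2 was the high one, above total ChREBP WT replicates 5 (6.62) and 8 (5.34), and the other 4 KO mice lay below every WT mouse. Fgb fell by 3.89 in total ChREBP KO (SE 1.17, adjusted p = 0.0402).

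Fgg stood at 11.77 to 16.11 in ChREBPβ WT (median 15.60), 10.45 to 15.50 in ChREBPβ KO (median 12.97) and 5.29 to 13.46 in total ChREBP WT (median 9.09), and read 4.71, 6.58, 4.75, 5.25 and 5.11 in total ChREBP KO. It fell by 3.66 (SE 1.14, adjusted p = 0.0476). Fga was dimmer. It stood at 7.41 to 12.27 in ChREBPβ WT and 6.23 to 11.28 in ChREBPβ KO, was above background on 5 of the 7 total ChREBP WT arrays (4.39 to 9.40), and was not well above background on any total ChREBP KO array. Against the lowest signal above background, Fga was 2.75-fold higher in total ChREBP WT than in total ChREBP KO (adjusted p = 0.403, not called).

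Serpinc1 encodes antithrombin, the inhibitor of thrombin. It stood at 11.82 to 16.13 in ChREBPβ WT (median 14.73), 9.99 to 15.51 in ChREBPβ KO (median 12.83) and 7.25 to 12.55 in total ChREBP WT (median 8.94). The 5 total ChREBP KO mice read 6.13, 7.19, 6.31, 5.92 and 6.08, all below the lowest total ChREBP WT mouse. Serpinc1 fell by 3.05 (SE 0.95, adjusted p = 0.048), whereas its other probe on the array was flat (0.01 in both lines).

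Of the remaining clotting genes, F2 (prothrombin) ran from 9.65 to 15.63 in the ChREBPβ line and from 4.64 to 11.99 in the total ChREBP line, F9 (factor IX) from 5.45 to 10.85 and from 4.07 to 7.01, Plg (plasminogen) from 5.51 to 9.30 and from 4.92 to 6.38, and Kng1 (kininogen) from 11.41 to 16.19 and from 8.20 to 12.96. F9 was not well above background on any total ChREBP KO array. Against the lowest signal above background it was 1.53-fold higher in total ChREBP WT, where 4 of the 7 arrays measured it (adjusted p = 0.586). Kng1 read 8.34, 8.39, 8.42, 8.20 and 8.40 in total ChREBP KO, below the 8.84 of the lowest total ChREBP WT mouse.

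The complement genes C8a and C9 (parts of the membrane attack complex) stood at 6.66 to 12.45 and 7.96 to 13.38 in the ChREBPβ line. In total ChREBP WT they ran from 4.24 to 8.50 and from 5.63 to 9.35. C8a was not well above background on any total ChREBP KO array. Against the lowest signal above background it was 2.15-fold higher in total ChREBP WT (above background on 5 of 7 arrays, adjusted p = 0.413). The other C8a probe gave a total ChREBP KO minus WT difference of -0.24, against -1.31 for the probe used. The protease inhibitors and hyaluronan binders were Serpina1a (alpha-1-antitrypsin), Mug1 (murinoglobulin) and the heavy chains Itih1 and Itih3. Serpina1a stood at 14.12 to 18.51 in the ChREBPβ line and 10.38 to 15.92 in the total ChREBP line. Its probe shares a run of 30 bases with a probe named for the paralogue Serpina1c, so the signal may be of both genes. Mug1 ran from 10.49 to 16.01 and from 4.75 to 11.96, Itih1 from 7.24 to 12.03 and from 5.34 to 8.52, and Itih3 from 8.42 to 13.73 and from 5.77 to 11.43.

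The intracellular liver proteins followed the secreted ones. Fabp1, the liver fatty acid-binding protein, stood at 13.72 to 17.43 in ChREBPβ WT, 12.07 to 16.62 in ChREBPβ KO and 6.12 to 13.15 in total ChREBP WT. The total ChREBP KO mice read 5.02, 7.60, 8.50, 9.20 and 5.75, and its SD of 1.78 made it the only 1 of the 36 genes with an SD over 1 in that group. G6pc (glucose-6-phosphatase, the last step of glucose release) read 6.07, 6.22, 5.84, 6.06 and 6.03 in total ChREBP KO, below the 6.36 to 8.61 of total ChREBP WT, and stood at 7.79 to 12.71 in the ChREBPβ line. Ces3a (a carboxylesterase) ran from 10.39 to 16.13 in the ChREBPβ line and from 4.46 to 11.39 in the total ChREBP line, Ugt2b38 (a glucuronosyltransferase) from 8.25 to 14.77 and from 4.50 to 9.69, Tat (tyrosine aminotransferase) from 8.04 to 12.74 and from 6.90 to 9.73, and Cps1 (carbamoyl phosphate synthetase of the urea cycle) from 6.47 to 11.94 and from 4.69 to 8.42.

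The iron hormone gene Hamp (hepcidin) stood at 7.81 to 13.34 in ChREBPβ WT, 6.56 to 11.71 in ChREBPβ KO and 4.30 to 10.98 in total ChREBP WT. The total ChREBP KO mice ran from 4.37 to 5.42, and 1 of the 5 arrays was above background. The acute phase gene Saa1 (serum amyloid A) stood at 9.84 to 14.31 in ChREBPβ WT (median 12.53) and 9.26 to 10.63 in ChREBPβ KO (median 10.11). Saa1 had the lowest adjusted p of the 36 genes in the ChREBPβ line (difference -2.29, SE 0.54, adjusted p = 0.222), which did not pass the test. With array weights it was the 1 gene called there, where 47 of all probes were called, against 2 in the main fit.

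Taking the genes as a list, ChREBPβ deficiency gave 0 calls among the 36, where 0.00505% of all 39619 probes were called. At an unadjusted p under 0.05, 6 of the 36 were lower in ChREBPβ KO, against 3.02% of all probes. The fitted difference was below 0 for 36 of 36 genes (41.5% of all probes), with a median of -1.35 and a range of -2.29 to -0.37, beside a median of 0.02 over all probes. Leaving out 1 array gave medians of -1.81 to -0.81, the latter without ChREBPβ KO replicate 3. The genes varied together from mouse to mouse, so the 36 signs are not independent of each other. For 0 of the 36 did ChREBPβ KO lie entirely below ChREBPβ WT, against 0.00252% of all probes. The median SE of a difference was 0.80 for these genes and 0.10 for all probes. Within wash batches 1 to 4 the mean of the 36 genes differed between ChREBPβ KO and WT by -2.04, -3.30, -0.97 and -0.07.

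Total ChREBP deficiency gave 4 calls, Ambp, Fgb, Fgg and Serpinc1, all lower in KO. That is 4 of 36, where 3.47% of all probes were called lower, and 0 of the 36 were called higher, where 5.48% of all probes were (8.95% in either direction). At an unadjusted p under 0.05, 24 of the 36 were lower (7.42% of all probes) and Apoc1 was higher. The fitted difference was below 0 for 35 of 36 (44.8% of all probes), with a median of -1.94 and a range of -3.89 to 0.65. For 4 genes (Apoa5, Kng1, Serpinc1 and G6pc) every total ChREBP KO mouse lay below every total ChREBP WT mouse on the probe used, as for 2.9% of all probes. Within wash batches 1 to 4 the mean of the 36 genes differed by -0.67, -2.46, -2.63 and -2.82. The 4 genes called were lower in KO within each batch, Ambp by a difference of -5.06 to -1.45, Fgb of -5.40 to -1.76, Fgg of -4.98 to -1.57 and Serpinc1 of -3.77 to -1.75, and the smallest difference was in batch 1 for all 4.

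These calls lay at the threshold. All 4 were made in 6 of the 11 alternative settings and in 2 of the 12 fits that left out 1 array of the line, and the number of genes called ran from 0 to 21 and from 0 to 14, respectively. The 21 came with array weights, under which 5329 of all 39619 probes were called in either direction, against 3546 in the main fit. Leaving out total ChREBP WT replicate 8 gave 14 genes and replicate 5 gave 13, the mice with the lowest means of that group, and leaving out any of the other 5 total ChREBP WT mice gave 0. Without replicate 5, 3538 of all probes were called, and without replicates 2 and 4, 3418 and 2876. Without total ChREBP KO replicate 2 only Fgb was called, and without any of the other 4 KO mice 0 genes were. The total ChREBP WT mice spread much more than the KO mice (median SD of a gene 1.71 against 0.42), and the fit gave both the same error.

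The difference of the 2 effects was below 0 for 23 of the 36 genes (50% of all probes) with a median of -0.69, and only Apoc1 passed its test, with the opposite sign, where 3.24% of all probes passed in either direction. Called lower were 0 of the 36 (1.95% of all probes), and 0 were lower at an unadjusted p under 0.05 (6.24% of all probes). Effects of total ChREBP and ChREBPβ deficiency on the other 35 genes were therefore not shown to differ.

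**Figure D3:**
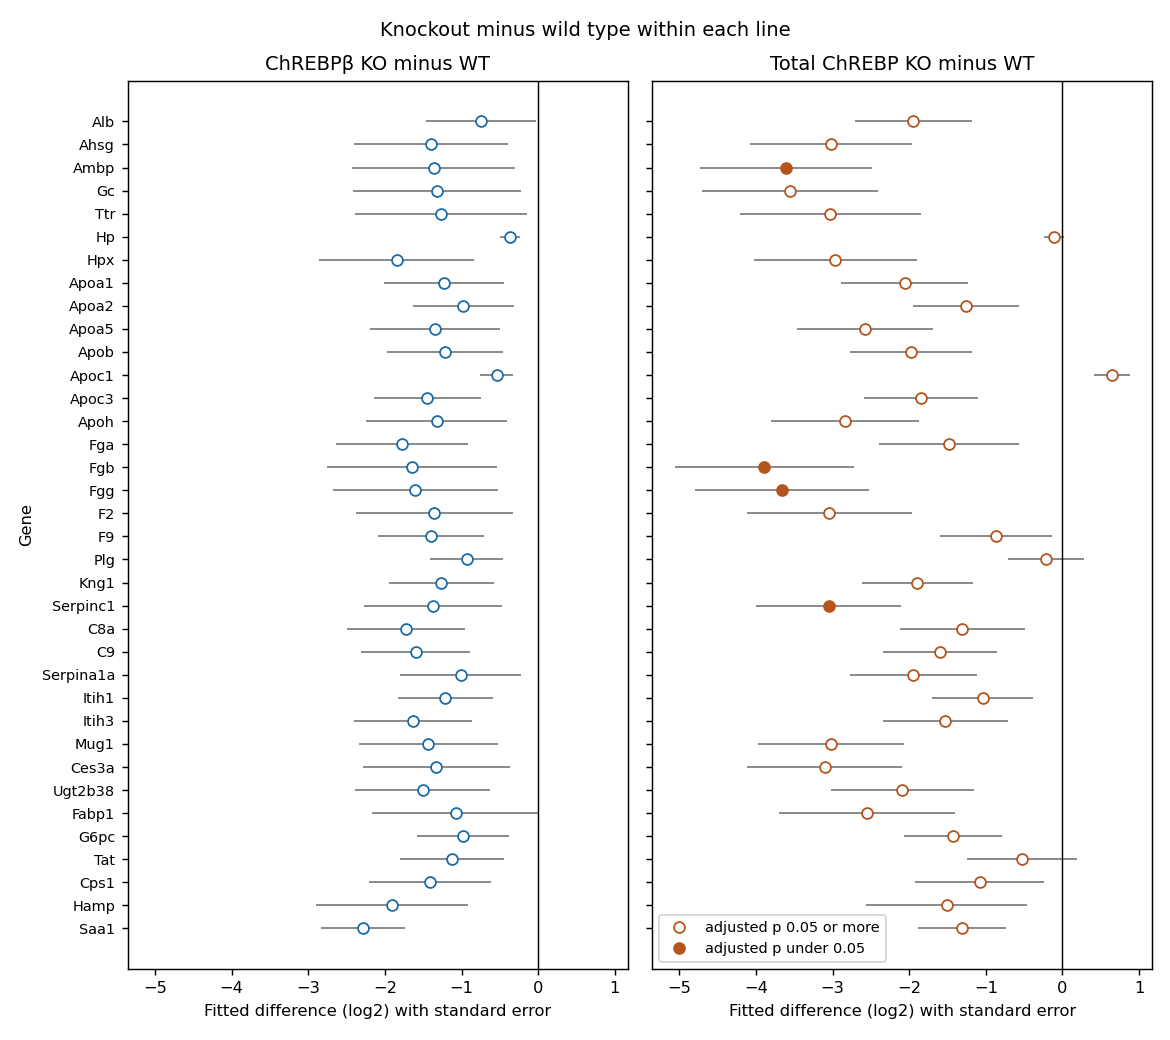
Fitted KO minus WT difference (log2, points) with its standard error (bars) for each of the 36 genes within the ChREBPβ line and the total ChREBP line; filled points have an adjusted p under 0.05. All 36 points lie left of 0 for ChREBPβ with 0 filled, and 35 of 36 for total ChREBP with Ambp, Fgb, Fgg and Serpinc1 filled and Apoc1 to the right.

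Within a group, the mice that were high for 1 gene were high for nearly all of them. In ChREBPβ WT, replicate 3 was the highest mouse for 31 of the 36 genes and replicate 1 the lowest for 33. In ChREBPβ KO, replicate 8 was highest for 28 and replicate 3 lowest for 34. In total ChREBP WT, replicate 2 was highest for 35 and replicate 8 lowest for 25. Of the total ChREBP KO mice, replicate 2 was highest for 26 and replicate 1 lowest for 20. The median within-group SD of the genes was 1.44, 1.75, 1.71 and 0.42 in the same order, against 0.19, 0.17, 0.17 and 0.14 for all probes. An SD over 1 was seen for 34, 33, 29 and 1 of the 36 genes, and for 2.67%, 2.47%, 1.83% and 1.12% of all probes.

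After each group's mean was removed, the level of a gene in the 13 mice of the ChREBPβ line was correlated with the mean of the other 35. The median Pearson r was 0.99, and 33 of the 36 genes had r above 0.9. Over all probes, those of the 36 included, 1.43% had r above 0.9 with the mean of all 36 genes. These correlations are descriptions of genes read on the same arrays and from a list chosen for its level, and no test was made of them. Gc, Ambp, Mug1 and Apoa2 followed the list most closely (r 0.997 to 0.998). Hp did not follow it (r 0.176, Spearman's rho 0.066), nor fully did Saa1 (0.488 and 0.489) and G6pc (0.845 and 0.89). Apoc1 followed it (r 0.917) with a slope of 0.28, so it changed by 0.28 where the other genes changed by 1 on the log2 scale. Without the 2 mice farthest from the middle (ChREBPβ KO replicates 3 and 8) the median r was 0.985 over 11 mice, and with wash batch means also removed it was 0.989. In the 7 total ChREBP WT mice the median r was 0.98, and 28 of the 36 genes had r above 0.9. Of all probes, 0.677% had r above 0.9 with the mean of all 36 genes there.

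**Figure D4:**
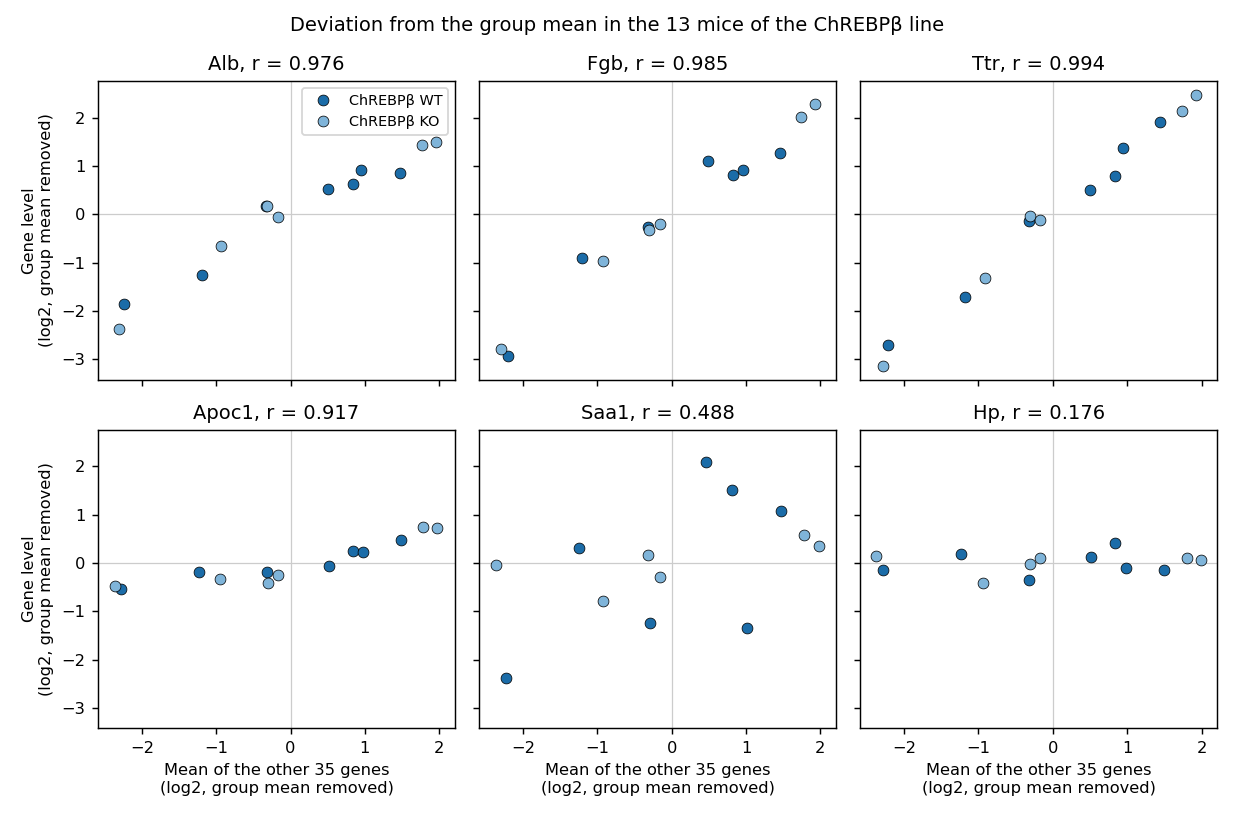
Level of 6 of the genes (y axis) against the mean of the other 35 (x axis), both in log2 with the group mean removed, in the 13 mice of the ChREBPβ line. Alb, Fgb and Ttr lie on a line (r 0.976, 0.985 and 0.994), Apoc1 on a flatter one (r 0.917), and Saa1 (r 0.488) and Hp (r 0.176) do not follow the others.

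Among the genes outside the list whose levels across the same 13 mice were most like its mean were Gltpd2, Hrg, F12, Apof, Pzp, Serpind1, Urah, Proz and Slc27a5 (r 0.998 to 0.999). Hrg, F12, Apof, Pzp, Serpind1 and Proz encode other plasma proteins, Slc27a5 a bile acid-CoA ligase of the liver and Urah an enzyme of urate breakdown. F12, coagulation factor XII, ran from 8.55 to 12.89 for ChREBPβ WT, from 6.92 to 11.94 for ChREBPβ KO, from 4.74 to 9.14 for total ChREBP WT and from 4.56 to 4.97 for total ChREBP KO. Pzp stood at 11.94 to 16.29, 10.30 to 15.17, 5.20 to 12.94 and 4.97 to 6.70 in the same order.

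Lists of other genes of the liver and of other tissues were set beside the 36. Of 59 other plasma protein genes, 55 were measured and 38 of them had r above 0.9 with the mean of the 36. For ChREBPβ WT their mean level ran from 10.77 to 13.62, for ChREBPβ KO from 9.81 to 12.89, for total ChREBP WT from 8.62 to 11.28 and for total ChREBP KO from 8.52 to 8.84. The brightest of them, which fat also expresses, were steadier, such as Apoe (17.67 to 18.35 over all mice, r 0.784) and C3 (16.34 to 17.84, r 0.555). Of the 55, 0 passed the test in the ChREBPβ line, 1 was lower in total ChREBP KO (Saa3, -2.23, adjusted p = 0.0159) and 1 higher (Rbp4, 0.53, adjusted p = 0.0396).

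Of 36 hepatocyte enzymes, transporters and transcription factors, 35 were measured and 27 had r above 0.9. Their mean level ran from 9.69 to 12.67, from 8.37 to 11.89, from 7.17 to 9.77 and from 7.14 to 7.69 in the same order of groups. The list gave 0 calls in the ChREBPβ line. With total ChREBP deficiency 1 gene was lower, Gys2 (liver glycogen synthase, -1.67, adjusted p = 0.000801), and 2 were higher, Pck1 (phosphoenolpyruvate carboxykinase, 2.44, adjusted p = 2.1e-05) and Cyp2e1 (a cytochrome P450, 0.93, adjusted p = 0.00618). Gys2 (r 0.693) was not laid out like the 36, with a median of 13.43 in total ChREBP WT and 12.47 in ChREBPβ WT. Pck1 and Cyp2e1, also expressed by adipocytes, had r of -0.185 and -0.175 with the 36. The probe for the bile acid transporter Slc10a1, a defining hepatocyte gene, stood at 18.37 to 18.61 in all 25 mice (r -0.489). These were among the brightest levels read, also in total ChREBP KO. A probe this bright and flat cannot show whether Slc10a1 followed the 36. Liver-resident cell types were less clear. Of 8 Kupffer cell and sinusoid genes, 4 had r above 0.9. They were Clec4f, Vsig4 and, of the sinusoidal endothelium, Clec4g (0.986) and Stab2 (0.955). Lyve1 (0.181), Timd4 (0.338), Fcna (0.361) and Cd5l (0.717) did not reach it, and the mean of that list had r of 0.956. The cholangiocyte list had 0 of 5 genes with r above 0.9.

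For cells that belong to fat, 0 of 12 adipocyte, 0 of 10 mesothelium and 0 of 10 macrophage genes had r above 0.9, and the list means correlated with that of the 36 at -0.664, -0.103 and 0.485. The red blood cell list ran from 11.10 to 12.67 over all mice (r 0.291). Pancreas genes ran from 7.77 to 8.31 over all mice (r 0.233), and the intestine list had 0 of 5 genes with r above 0.9.

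Markers of other organs were high in single mice. Kidney genes had a list mean of 10.44 and 10.06 in ChREBPβ WT replicates 3 and 1, then 8.71 in replicate 7. The tubule gene Miox read 13.75, 13.56 and 11.59 there, against 5.56 in the lowest mouse of that group. In ChREBPβ KO the list mean was 7.65 in replicate 2 and 7.26 in replicate 4, with Miox at 10.14 and 8.15. Replicates 3 and 1 were the mice with the highest and the lowest mean of the 36 genes in ChREBPβ WT, and the kidney list had r of -0.002 with the 36. Of 10 genes of epididymis and vas deferens, 4 were measured, and their mean was highest in total ChREBP WT replicate 2 (11.24). Adam7 (15.60), Wfdc15b (13.07) and Defb18 (7.96) had their highest level there, whereas Rnase10 had its lowest (8.35). Wfdc15b was also high in ChREBPβ KO replicate 2 (11.37), ChREBPβ WT replicate 1 (11.38) and total ChREBP WT replicate 8 (11.42). Total ChREBP WT replicate 2 was also the highest mouse of its group for 35 of the 36. Whether kidney or epididymis tissue had a part in the levels of the 36 genes was not tested. Without total ChREBP WT replicate 2 the median difference of total ChREBP KO from WT was -1.50.

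**Figure D5:**
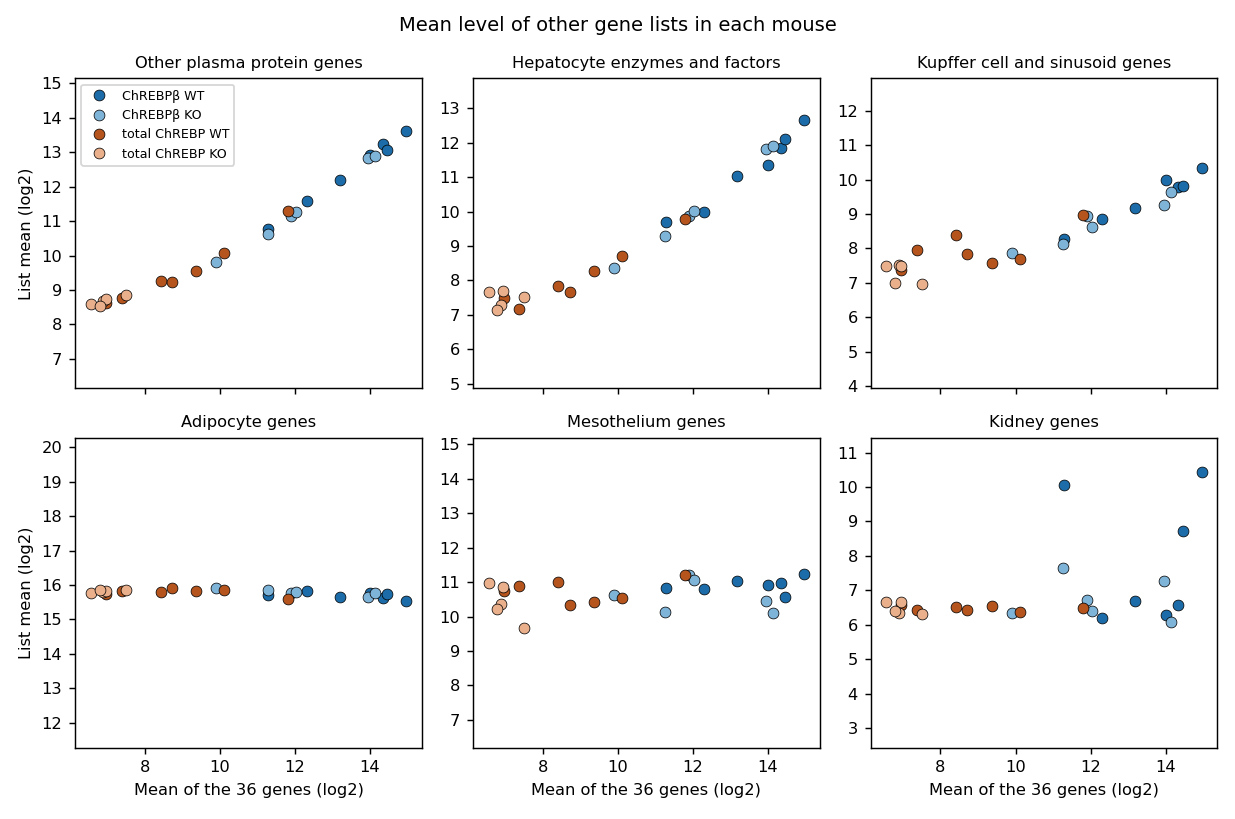
Mean level (log2, y axis) of 6 gene lists against the mean of the 36 genes (log2, x axis) in each of the 25 mice, coloured by group; every y axis spans 9 log2 units. Other plasma protein, hepatocyte and, at the upper end, Kupffer cell and sinusoid genes stand higher where the 36 do, adipocyte and mesothelium genes stay level, and kidney genes are high in single mice.

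The promoters of the 36 genes were examined for letters they might share, since the genes varied together. RefSeq promoters on build GRCm38.p6 were matched by symbol for 28 of the 36, and the 250 bases before the transcription start were searched on both strands. A gene of the list counted as matched if any of its promoters matched. The share over all promoters counts each promoter once, so the percentages have different units. The letters GTTAAT, part of the site bound by HNF1, occurred in 10 of the 28 (35.7%, against 6.43% of 32851 promoters), namely Alb, Serpina1a, Fga, Fgb, C8a, Gc, Fabp1, Mug1, G6pc and Itih1. The letters TGTTTGC, read by FOXA proteins, occurred in 9 (32.1%, against 4.3%), namely Alb, Serpina1a, Fabp1, G6pc, Ambp, Ahsg, Apoa1, Apoa5 and Apob. The letters CAAAGTCCA of HNF4 and TTGCGCAA of C/EBP matched 0 of the 28 (against 0.384% and 0.164%). The E-box CACGTG, of which carbohydrate response elements contain variants, matched Apoa5 only (3.57%, against 6.02%). The motifs were chosen with the results known, and a match describes the letters, not binding.

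Alb, Serpina1a, Fabp1 and G6pc are shown because each holds both the HNF1 and the FOXA letters, Fgb because it gave the largest difference in total ChREBP KO, and Apoa5 because it holds the E-box. Each sequence is the 250 bases upstream of the start, 5′ to 3′ on the gene's strand, with matches on either strand in capitals. The positions on GRCm38.p6 are chr5:90460620-90460869 (plus strand) for Alb, chr12:103863620-103863869 (minus) for Serpina1a, chr6:71199629-71199878 (plus) for Fabp1, chr3:83049864-83050113 (minus) for Fgb, chr11:101367466-101367715 (plus) for G6pc and chr9:46268358-46268607 (plus) for Apoa5.
Alb: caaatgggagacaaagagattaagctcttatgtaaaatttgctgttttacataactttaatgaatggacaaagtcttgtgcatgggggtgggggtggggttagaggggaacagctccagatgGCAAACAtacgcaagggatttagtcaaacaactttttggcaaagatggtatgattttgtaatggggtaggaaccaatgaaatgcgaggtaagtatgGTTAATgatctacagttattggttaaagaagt
Serpina1a: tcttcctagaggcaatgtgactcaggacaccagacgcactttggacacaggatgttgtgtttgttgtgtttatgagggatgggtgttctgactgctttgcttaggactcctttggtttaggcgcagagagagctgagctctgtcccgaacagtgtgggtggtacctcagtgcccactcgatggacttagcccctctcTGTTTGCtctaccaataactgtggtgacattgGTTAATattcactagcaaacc
Fabp1: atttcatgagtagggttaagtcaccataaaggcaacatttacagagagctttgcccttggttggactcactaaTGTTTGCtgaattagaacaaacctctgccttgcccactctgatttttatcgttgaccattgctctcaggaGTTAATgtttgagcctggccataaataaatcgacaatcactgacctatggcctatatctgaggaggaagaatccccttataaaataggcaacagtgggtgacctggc
Fgb: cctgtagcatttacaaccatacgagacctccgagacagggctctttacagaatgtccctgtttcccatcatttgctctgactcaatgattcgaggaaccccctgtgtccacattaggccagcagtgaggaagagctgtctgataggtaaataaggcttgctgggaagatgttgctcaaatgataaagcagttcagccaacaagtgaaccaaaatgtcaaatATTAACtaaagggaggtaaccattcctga
G6pc: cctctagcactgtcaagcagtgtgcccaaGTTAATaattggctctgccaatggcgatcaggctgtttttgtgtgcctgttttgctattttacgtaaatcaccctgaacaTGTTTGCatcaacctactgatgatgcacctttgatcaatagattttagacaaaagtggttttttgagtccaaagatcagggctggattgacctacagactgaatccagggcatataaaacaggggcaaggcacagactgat
Apoa5: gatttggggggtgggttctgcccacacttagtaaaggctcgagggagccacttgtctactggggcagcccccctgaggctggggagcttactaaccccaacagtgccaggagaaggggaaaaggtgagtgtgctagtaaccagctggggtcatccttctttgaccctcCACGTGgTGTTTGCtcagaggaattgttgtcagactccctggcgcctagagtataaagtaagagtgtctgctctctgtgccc
In Alb the HNF1 letters begin 32 bases before the start and in Serpina1a 21 bases before it, in Fgb, read on the opposite strand, 29 bases before it, whereas in G6pc they begin 221 bases before it. In Apoa5 the E-box begins 82 and the FOXA letters 75 bases before the start, 1 base apart. Among these genes Alb, Serpina1a, Fabp1 and Fgb had r of 0.976 to 0.988 with the rest of the list in the ChREBPβ line, G6pc 0.845 and Apoa5, which holds no HNF1 letters in this window, 0.989.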

How the data were processed

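Gene expression in pgWAT of 25 mice was measured with 1-colour Agilent arrays, 1 array per mouse. The authors labelled cRNA with Cy3 and quantified spots with Agilent Feature Extraction 10.10.1.1, and the deposited scanner files hold raw spot intensity, local background and flags. The authors' deposited series table holds log2 values after their spot filter and quantile normalisation (40561 probes) and served as an alternative.

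Spots were kept where Feature Extraction called them found, positive and well above background on at least 21 arrays or on 75% of the arrays of 1 group (42315 of 59305 spots). After quantile normalisation of log2 median intensity, 39619 probes were fitted with limma 3.58.1 (R 4.3.3) on the 4 groups plus wash batch, over all 25 arrays, with 18 residual degrees of freedom, and p-values were adjusted by Benjamini-Hochberg over all probes (called under 0.05). Every adjusted p given here is from a limma fit of this kind. An outlier flag left 24 values missing. Differences between lines and correlations were not tested. Fold values against the lowest signal above background set the mean of the bright group against the mean, over arrays of the dim group, of the higher of the probe's signal and the lowest signal well above background. They are not lower bounds, because some arrays of the bright group were not above background either. The number of arrays limits the precision.

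Samples were grouped by the genotype label. The genes, lists and motifs were chosen with earlier results of these data known. The rule for named genes printed tests for Alb and called genes, and named the brightest genes of each list and the 10 genes most like the 36, of which some are not reported here. Tests for Hp, Apoa5, Saa1 and genes below background, and Saa3, which is not among the brightest of its list, were chosen after their values were seen. The alternatives were processed signal, normexp correction (offset 50), the series table, no filter, no wash batch, scan day, slide, replicate number, array weights, the arrays of 1 line, the mean over probes, and leaving out each array. Probe positions are those of the array design on mm9, and promoters are RefSeq on GRCm38.p6.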

Additional observations from a re-analysis of the deposited data

Results flagged for a closer look

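In total ChREBP KO, replicate 2 stood apart from the other 4 mice for 3 of the genes called in that line. Ambp read 7.54 there and 6.23 in the next mouse, a gap of 71.8% of the group's range. Fgb read 7.11 against 5.24 (73.7%) and Fgg 6.58 against 5.25 (71.3%). This mouse was the highest of its group for 26 of the 36 genes. The limit was Dixon's 95% critical value for the size of the group, which by its construction flags about 1 in 20 groups by chance, and 28 sets of values were examined. The 3 genes vary together and share this mouse, so they are not separate observations. Without this mouse Fgb was the 1 gene called lower in KO.

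The effect of deficiency on Apoc1 differed between the lines by 1.19 on the log2 scale (limma, adjusted p = 0.0426). The KO minus WT difference was 0.65 for total ChREBP and -0.54 for ChREBPβ.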

How the results depend on the processing

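Fitted differences kept their direction in every alternative run for Alb, Ambp, Fgb, Fgg and Serpinc1 in total ChREBP KO, for Alb in ChREBPβ KO and for Apoc1 between the lines, and 36 and 35 genes were lower in the 2 lines under each of the 4 scalings. The counts of calls were less stable. In total ChREBP KO 4 genes were called, against 10 with processed signal, 7 without wash batch, 21 with array weights, 2 with the mean over probes, and 0 with normexp correction, without a filter, with the replicate block or with the arrays of the line alone. Over all probes 3546 were called in the main fit, 3719 with processed signal, 3398 without wash batch and 5329 with array weights. Normexp correction gave 3745 of all probes, no filter 3252, the replicate block 2482 and the arrays of the line alone 3325. With the mean over probes it was 2361 genes. Leaving out 1 array gave 0 to 14. In ChREBPβ KO 0 genes were called, with 1 (Saa1) under array weights and 0 to 0 when 1 array was left out. For the difference of effects 1 gene was called, against 0 with processed signal, without a filter and with the replicate block, and 0 to 1 when 1 array was left out. With processed signal the median difference in total ChREBP KO was -2.88, that of effects -1.38 and that between the knockouts of the 2 lines 7.02. With normexp correction the latter 2 were -0.34 and 4.90, and with the replicate block the median difference of effects was -0.30. Leaving out 1 array gave medians of -1.81 to -0.81 for ChREBPβ KO, -2.33 to -1.50 for total ChREBP KO, -1.23 to -0.33 for the difference of effects and 5.05 to 5.83 between the knockouts. The cause of these shifts was not tested. Deviations of same-numbered mice from their group means correlated at -0.434 to 0.381 over 5 pairs of the ChREBPβ line and -0.231 to 0.144 over 4 of the total ChREBP line. Other pairs ran from -0.602 to 0.644 and from -0.446 to 0.482. So few pairs cannot show whether the numbers pair mice. With the replicate block 0 of the calls were left. Genes near background in total ChREBP KO (3 not above it on any array) limit how large a difference could be read.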
